A study of Mus musculus with 2 samples.

Results

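DNase-seq maps open chromatin by cutting nuclei with the nuclease DNase I and sequencing the cut ends; a footprint is a short stretch inside an open region that is cut less than its flanks. The 16950 distal footprints described here were found in both libraries of liver from mouse embryos of strain B6NCrl at embryonic day 11.5. They make up 15.7% of the 107626 footprints listed for technical replicate 7. They were chosen by measured values, namely the footprint lists of both libraries and the peak list of replicate 7. A member is an autosomal footprint of replicate 7, wholly inside a peak of that library and over 1000 bp from any GENCODE transcript start, that overlaps a footprint of technical replicate 1 by 1 bp or more. Of 105360 autosomal footprints, 90943 lay inside a peak and 45527 of these were distal, so the members were 37.2% of the distal footprints. The other 28577 distal footprints of replicate 7 are called found once, and 37045 distal footprints of replicate 1 inside the same peaks had no overlap with the list of replicate 7.

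Both libraries come from 1 biosample of tissue pooled from male and female embryos, so there is 1 biological sample, no second condition and no test over samples. The protocol linked for the nuclei is one named for cultured cells. The intervals in parentheses are 95% intervals, exact Clopper-Pearson ones for shares, and cover counting error only, since members of a library are not replicates. The list of replicate 1 held 219621 footprints from another processing, so numbers of footprints cannot be compared between the libraries. Peaks of replicate 7 lay within 1000 bp of a start of 5 of 5 erythroid markers, 4 of 5 hepatoblast markers (all but Alb), 2 of 3 endothelial, 0 of 2 macrophage and 2 of 2 neuronal markers. In replicate 1 these numbers were 5, 2, 1, 0 and 2. At this age red cells form in the liver beside the precursors of hepatocytes. The erythroid starts were thus open in both libraries, while of the hepatoblast starts Foxa3 and Cebpa were open in both, Hnf4a and Afp in replicate 7 alone and Alb in neither. The starts of the neuronal genes Snap25 and Rbfox3 were open in both.

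A footprint forms where a bound protein shields DNA from the nuclease, and it is deepest for proteins that hold long sites for a long time. CTCF, a zinc-finger protein that anchors chromatin loops and insulates enhancers, is the classic example, and REST, which represses neuronal genes in other tissues, also reads a long site. GATA1 with its partner TAL1 drives red cell genes, whereas HNF4A, FOXA and C/EBP factors drive liver genes; several of these stay on DNA only briefly. RNA polymerase III transcribes tRNA genes, where TFIIIC holds the A and B boxes inside the gene and TFIIIB sits just upstream of it.

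Sequences of single members show what the footprints cover, 2 for each of CTCF, the composite of TAL1 and GATA factors, HNF4A, REST and tRNA genes. Each is the member in the densest peak of replicate 7, or the next one, that carries the motif and also lies in a peak of replicate 1; the REST and tRNA examples were added after values had been seen. The 41 bases around the footprint midpoint are given 5′ to 3′ on the strand of the motif, from the mouse genome GRCm38 (mm10). Capitals mark the motif match, and in tRNA genes the bases under the footprint of replicate 7.
CTCF near Stard10 (chr7:101310774-101310814, plus strand): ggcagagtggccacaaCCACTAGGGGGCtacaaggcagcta
CTCF near Bcan (chr3:87987128-87987168, minus strand): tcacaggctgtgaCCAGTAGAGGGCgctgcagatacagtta
TAL1-GATA near 4931414P19Rik (chr14:54603430-54603470, plus strand): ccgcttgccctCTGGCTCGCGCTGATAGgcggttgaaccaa
TAL1-GATA near Adam10 (chr9:70835006-70835046, minus strand): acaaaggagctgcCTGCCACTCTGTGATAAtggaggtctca
HNF4A near Cd209a (chr8:3754485-3754525, plus strand): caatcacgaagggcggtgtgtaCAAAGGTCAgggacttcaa
HNF4A near Ifna13 (chr4:88641167-88641207, plus strand): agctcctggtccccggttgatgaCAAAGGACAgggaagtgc
REST in an intron of Xkr6 (chr14:63681610-63681650, plus strand): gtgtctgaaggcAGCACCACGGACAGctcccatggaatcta
REST in the same intron (chr14:63681673-63681713, plus strand): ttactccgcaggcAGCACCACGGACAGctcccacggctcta
Threonine tRNA gene n-TTagt9 (chr7:35234764-35234804, minus strand): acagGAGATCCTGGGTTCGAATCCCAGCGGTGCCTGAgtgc
Arginine tRNA gene n-TRccg1 (chr11:107012904-107012944, plus strand): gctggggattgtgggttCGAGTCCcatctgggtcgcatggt

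At the CTCF site near Bcan the footprint was 29 bp wide in replicate 7 and 30 bp in replicate 1, with the same edge at the lower genomic coordinate. At the site near Stard10, 6282 bp from that gene's start and intergenic, it was 21 bp wide in replicate 7 and 17 bp in replicate 1, with 16 bp shared. The first REST footprint in the intron of Xkr6, 22460 bp from its start, was 28 bp wide in replicate 7 and 29 bp in replicate 1. The second lay in the same peak and was 25 bp in replicate 7 and 32 bp in replicate 1. In these 4 examples the widths differed by at most 7 bp between libraries. The TAL1-GATA footprint near 4931414P19Rik, in an intron, was 7 bp in replicate 7 and 9 bp in replicate 1 and lay mostly between the CTG and the GATA letters of the composite. The one in an intron near Adam10 was 21 bp in replicate 7, but replicate 1 marked 7 bp of it. The HNF4A footprint near Cd209a was 35 bp in replicate 7 and 58 bp in replicate 1, in a peak whose density was 13.2 in replicate 7 and 16.5 in replicate 1, far above the members' median of 1.19 in replicate 7. Density here is the highest cut density in the peak as the authors list it, on a scale the headers do not name.

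Members were wider than footprints found once, and their peaks were denser. A wider footprint meets a rule of 1 bp of overlap more readily, so the difference in width may follow in part from the rule itself. The median width was 12 bp (quartiles 8 and 19) in members and 8 bp (7 and 10) in footprints found once, and 24.8% of members against 4.02% of those found once were 20 bp or wider. The median peak density was 1.19 (quartiles 0.833 and 1.71) for members and 0.601 (0.437 and 0.921) for footprints found once. Members lay closer to the peak summit, at a median of 13 bp against 20 bp, and closer to the nearest transcript start, at 8016 bp against 9152 bp. Footprints found once in replicate 1 lay farther from the summit, at 55 bp, but closer to a start, at 7653 bp. Members spread over 12173 peaks, of which 72.7% overlapped a peak of replicate 1, and over all autosomes, with 484 to 1506 members on each.

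The median overlap was 9 bp, and 688 members had identical edges in both libraries. Just inside the rule were 371 members that overlapped by 1 bp, and 1260 that overlapped by 1 to 3 bp; just outside, 978 footprints found once had a footprint of replicate 1 at most 2 bp away. At the other limit, 267 members lay within 100 bp beyond the distal limit. Footprints of replicate 1 covered 4.70% of the bases of distal peaks. Replicate 1 also has a list of positions with an FDR of the cut rate below 0.05; the sources do not define it further, and the notes name it among the inputs of that library's footprint list. It held at least 1 position under 99.8% of members and under 39.7% (39.2 to 40.3) of footprints found once. The share in members may follow from the rule itself. Of the bases of distal peaks, 41.1% were listed. That is a share of single bases, so it cannot be set directly against a share of footprints with at least 1 listed position. Of the footprints, 77.3% of members and 21.1% of those found once lay in a peak of replicate 7 that overlapped a peak of replicate 1. Overlap with a peak of replicate 1 therefore moved with membership, and its part in the results was not tested beyond the repeats within density and within shared peaks given beside them.

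In this 41 bp window the CTCF motif had the highest ratio over matched points of the 29 searched; with 30 bp a side the REST motif, at 12, stood above CTCF, at 9.10. A match to its core lay within the 41 bases around 3114 members, 18.4% (17.8 to 18.96), against 6.92% (6.63 to 7.22) of footprints found once in replicate 7 and 0.956% (0.859 to 1.06) of those found once in replicate 1. Each member was also set beside a point of the same peak with a like number of G and C letters whose central 21 bases touched no footprint, which could be found for 15449 members (91.1%). Among these, 2798 members and 5 points held the CTCF core, or 18.1% against 0.0324% (0.0105 to 0.0755), a ratio of 560 (233 to 1345) that rests on those 5 points and ran over 9.10 to 1038 in 17 alternative settings. With a looser consensus 23.8% of members, 8.68% of footprints found once and 0.194% of points matched. On each of the 19 autosomes the CTCF share was higher in members, where it ran over 13.5% to 22.7%, than in footprints found once, where it ran over 5.89% to 8.80%. CTCF members were the widest class, with a median of 20 bp (quartiles 13 and 24), against 11 bp (8 and 17) for footprints found once with the same core. This difference in width may also follow in part from the overlap rule.

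REST showed the same order at lower numbers. Its parts AGCACC and GGACAG, 2 letters apart, lay at 204 members in 180 peaks, 1.20% (1.04 to 1.38), against 0.339% (0.275 to 0.414) of footprints found once. Among matched members it lay at 188, 1.22%, and at 5 points, 0.0324%, a ratio of 37.6 (15.5 to 91.4); in footprints found once it lay at 93 with a point and at 3 points. With so few points the ratio moved, to 12 with 30 bp a side, 85 without replicate 7, 102 without matching on GC, 106 with CpG matched, 186 without mostly soft-masked windows and 163 with 1 footprint a peak. REST members had a median width of 18 bp and lay a median of 13373 bp from the nearest start, against 19563 bp for REST footprints found once and 8016 bp for all members. By nearest protein-coding start, 6 of the 204, 2.94% (1.09 to 6.29), belonged to the 18 listed neuronal genes, against 37 of the other 16746 members, 0.221% (0.156 to 0.304). Of the 6, 2 lay beside Rbfox3. They stood next to Gad1, which makes the transmitter GABA, the neuronal regulators Neurod2 and Rbfox3, and Stmn2 and Tubb3 of the neuronal cytoskeleton.

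The SP, NRF1, CREB, YY1 and RFX sites were also more frequent at members than at their points. The SP site CCNCGCCC lay at 4.57% of members and 1.81% of footprints found once; among matched members it was 4.18% against 1.43% of points, a ratio of 2.92 (2.51 to 3.39). That ratio was 7.05 with 10 bp a side, 1.48 with 30 bp a side and 4.695 with points not matched on GC, and 2.31 (1.96 to 2.72) in footprints found once. NRF1, read as GCGC repeated after 2 letters, lay at 0.873% of members and 0.182% of footprints found once; among matched members it was 0.835% against 0.142% of points, a ratio of 5.86 (3.73 to 9.21), against 8.80 (3.49 to 22.2) in footprints found once. The CREB site TGACGTCA had a ratio of 7.00 (2.98 to 16.5) over 6 points, against 6.625 (3.15 to 13.9) in footprints found once. The YY1 site AANATGGC had one of 2.81 (2.13 to 3.71), against 1.74 (1.43 to 2.12). RFX, GTTGC and GCAAC with 3 or 4 letters between, lay at 17 matched members and no point. Taking 3 points as the limit that a count of 0 allows, it was 5.67 times as frequent. This value leaves out the counting error of the 17 members and has no interval. It lay at 0.100% of members and 0.168% of footprints found once. Among matched footprints found once it lay at 46 and at none of their points, 15.3 times as often with the same limit of 3 points. Members had 58.3% G and C in their windows and footprints found once 51.8%, and 70.7% of matched members against 61.6% of their points held a CpG. Of the 29 motifs searched, 8 (27.6%) were at least 2 times as frequent in members as in points, with RFX counted by that limit. The E-box CACGTG, at 0.686 (0.544 to 0.864), and MEIS (TGACAG), at 0.754 (0.659 to 0.862), were less frequent in members than in points. The ratios of ETS (CCGGAAG), at 1.02 (0.755 to 1.39), SOX, AP-1, NFY, TEAD and the E-box CAGCTG had intervals that include 1. NFI lay at 5 matched members and no point.

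**Figure D1:**
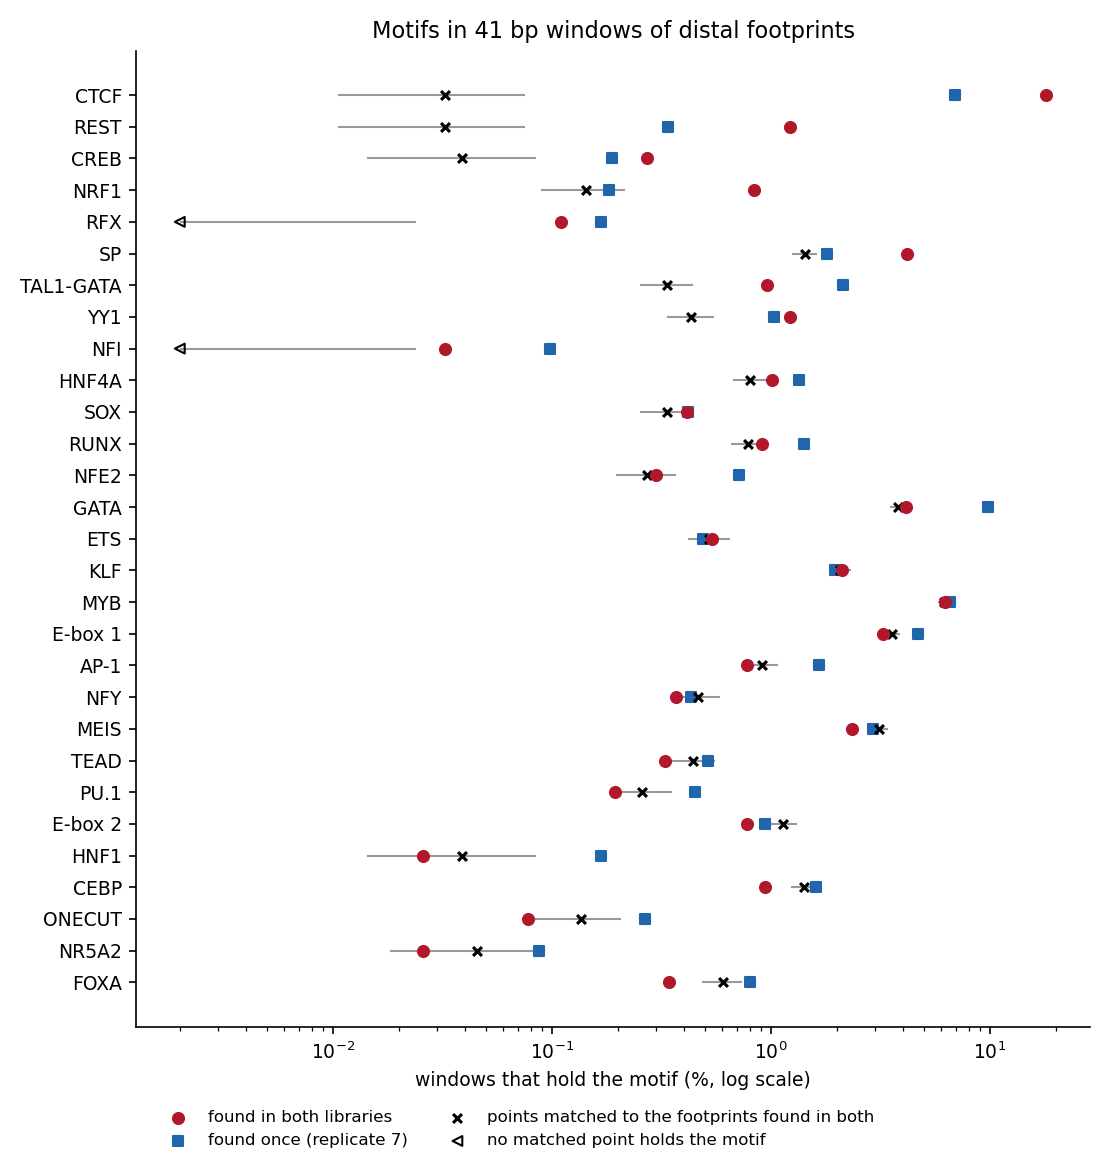
Share of 41 bp windows that hold each of 29 motifs (horizontal axis, percent, log scale) in members with a matched point (red), in footprints found once in replicate 7 (blue) and in the points matched to members (crosses, with 95% intervals; open triangles where no point holds the motif), ordered by the ratio of members to points. The E-box rows are CAGCTG (1) and CACGTG (2). CTCF stands at 18.1% of members and 0.0324% of points, and GATA at 4.14% of members, 9.82% of footprints found once and 3.79% of points.

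Of the 7 blood motifs, 6 were less frequent in members than in footprints found once in replicate 7. Against footprints found once in replicate 1, RUNX (0.829%) and MYB (5.72%) were instead more frequent in members, at 0.873% and 6.06%, with overlapping intervals. The other blood motifs were less frequent in members there too, KLF included. Against replicate 7 the KLF box CCNCACCC was the exception, with 2.22% of members and 1.97% of footprints found once. The difference was 0.252 percentage points (−0.0179 to 0.531), an interval that holds 0. The GATA site (GATA between an A or T and an A or G) lay at 667 members, 3.94% (3.65 to 4.24), against 9.82% (9.48 to 10.2) of footprints found once. Among matched members it was 4.14% against 3.79% of points, a ratio of 1.09 (0.979 to 1.22) whose interval holds 1. With points not matched on GC that ratio was 0.764 (0.692 to 0.843), with the longer footprint list of replicate 7 it was 1.14 (1.05 to 1.23), and with 30 bp a side 1.10 (1.01 to 1.19). Its side of 1 thus depended on the processing. For footprints found once the ratio to their own points was 1.36. The composite of CTG, 7 to 9 letters and a GATA site, which TAL1 and GATA1 read together and which counts in the GATA row too, lay at 0.909% of members and 2.13% of footprints found once. It was above the points of members all the same, by a ratio of 2.87 (2.09 to 3.93), or 1.68 with 30 bp a side; for footprints found once the ratio to their own points was 3.14 (2.67 to 3.69). The ratios of the other blood motifs were near 1: 1.10 for NFE2 (CTGAGTCA, which holds the AP-1 site), 1.01 for the KLF box, 1.15 for RUNX (TGTGGTT), 0.750 for PU.1 (GAGGAAGT) and 1.01 for MYB (CAACNG), all with intervals that include 1.

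All 6 liver motifs were less frequent in members than in footprints found once in replicate 7. Against footprints found once in replicate 1, HNF4A, at 0.918%, was instead below the 0.973% of members, with overlapping intervals. The other liver motifs were less frequent in members there too. The HNF4A site CAAAGNNCA lay at 165 members, 0.973%, against 1.34% of footprints found once, and its ratio to points was 1.26 (0.995 to 1.59); in peaks shared with replicate 1 it was 1.40 (1.06 to 1.85), and with 30 bp a side 0.986 (0.819 to 1.19). The forkhead site of FOXA factors (TGTTTAC or TATTTAC) was less frequent in matched members, 0.343%, than in points, 0.602%, a ratio of 0.570 (0.407 to 0.798). It was 0.227 with 10 bp a side and 0.331 with points not matched on GC, and its interval held 1 with distance from the peak centre matched, at 0.673 (0.444 to 1.02), and with 1 footprint a peak, at 0.714 (0.463 to 1.101). The C/EBP site TTGCNNAA likewise had 0.939% in matched members and 1.41% in points, a ratio of 0.665 (0.540 to 0.820), or 0.333 with 10 bp a side, 0.920 (0.787 to 1.07) with 30 bp a side and 1.01 (0.880 to 1.16) without replicate 7. HNF1 (GTTAATNAT) lay at 4 members, NR5A2 (TCAAGGTCA) at 5 and ONECUT (ATTGATT) at 13.

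Each footprint was then put in 1 class, CTCF first and the rest by blood or liver motifs. Of members 18.4% were CTCF, 11.5% (11.0 to 11.98) blood, 1.69% (1.499 to 1.89) liver, 0.271% both blood and liver, and 68.2% held none of these motifs. Of footprints found once in replicate 7 the shares were 6.92% CTCF, 18.2% (17.8 to 18.7) blood, 3.26% (3.06 to 3.47) liver, 0.724% both and 70.9% none. Matched members had 11.8% blood (11.3 to 12.3) and their points 12.4% (11.9 to 13.0), whereas footprints found once had 18.4% (17.9 to 18.8) and their points 15.7% (15.3 to 16.2). For liver motifs the values were 1.77% in matched members against 2.55% in their points, and 3.298% in footprints found once against 3.29% in theirs. Blood and liver shares were lower in members than in footprints found once on each of the 19 autosomes. With CTCF first, a window with its core could not count as blood or liver. This left out 18.1% of matched members but 0.0324% of their points, and 18.4% of members but 6.92% of footprints found once. Outside CTCF, 1819 matched members were blood and 10515 none, against 1920 and 13063 points, so blood was not rarer in members there. Among all footprints outside CTCF, members held 1947 blood, 286 liver and 11557 none. Footprints found once in replicate 7 held 5207, 932 and 20254. Relative to none, blood and liver were thus less frequent in members than in footprints found once there too. The rule could lower blood and liver shares more in members, here and in the repeats below.

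Peak density moved with membership, so the split was repeated within 5 classes of peak density, each with about as many distal footprints. The part of distal footprints found in both climbed over the classes, with 6.90%, 18.2%, 37.0%, 55.3% and 69.5% from the lowest to the highest. Within them the CTCF share was 9.18%, 15.4%, 19.2%, 23.0% and 16.0% of members, against 4.78%, 8.09%, 9.67%, 8.34% and 2.72% of footprints found once. The blood share was 13.8%, 13.4%, 10.8%, 11.7% and 10.9% of members, against 18.8%, 18.96%, 18.05%, 17.5% and 16.0%. The liver share was 1.56%, 2.25%, 1.94%, 1.498% and 1.57% of members, against 3.78%, 3.31%, 2.66%, 3.08% and 3.01%. The order of the groups was the same in every density class for CTCF, blood and liver. For CTCF and blood the intervals did not overlap in any class; for liver they overlapped in classes 2 and 3, which held 37 and 65 liver members.

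**Figure D2:**
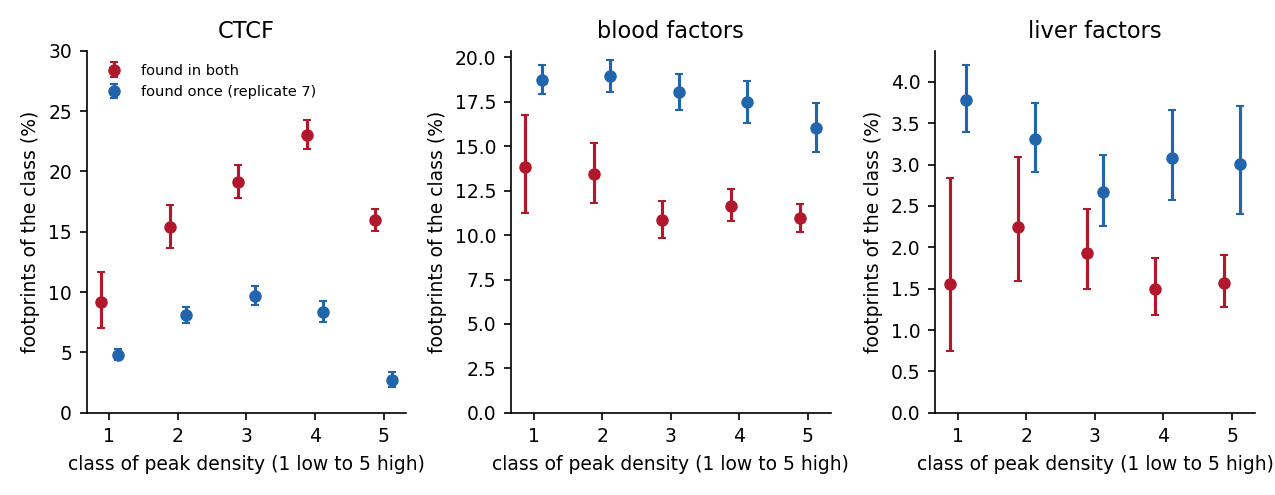
Share of footprints in the CTCF, blood and liver classes (vertical axes, percent, scales differ) by class of peak density (horizontal axis, 1 low to 5 high), for members (red, left) and footprints found once in replicate 7 (blue, right), with 95% Clopper-Pearson intervals. CTCF runs over 9.18% to 23.0% of members and 2.72% to 9.67% of footprints found once, and the blood and liver classes are lower in members in each density class.

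The same question can be asked from the side of the motif, counting each match in distal peaks of replicate 7 whether or not a footprint lies on it. Of 5389 CTCF matches, 53.5% touched a member, 31.1% a footprint of replicate 7 alone, 3.43% one of replicate 1 alone and 12.04% none. Of 317 REST matches the shares were 57.4%, 22.4%, 6.31% and 13.9%. A member lay on 26.6% of 576 NRF1 matches, 14.4% of 5027 SP matches, 13.4% of 254 CREB matches and 10.6% of 141 RFX matches. For the blood and liver factors nearly all matches had no member: 0.790% of 31408 GATA matches touched one, 3.47% of 4777 TAL1-GATA matches, 3.59% of 8226 KLF matches, 2.73% of 4140 HNF4A matches, 0.879% of 6258 C/EBP matches and 0.406% of 3696 FOXA matches. A GATA match in an open distal region had no footprint in either library in 92.4% of cases. The motifs differ in length: a short one such as GATA matches more places, and a long match is touched more readily. The part of motif length in these gaps was not tested.

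**Figure D3:**
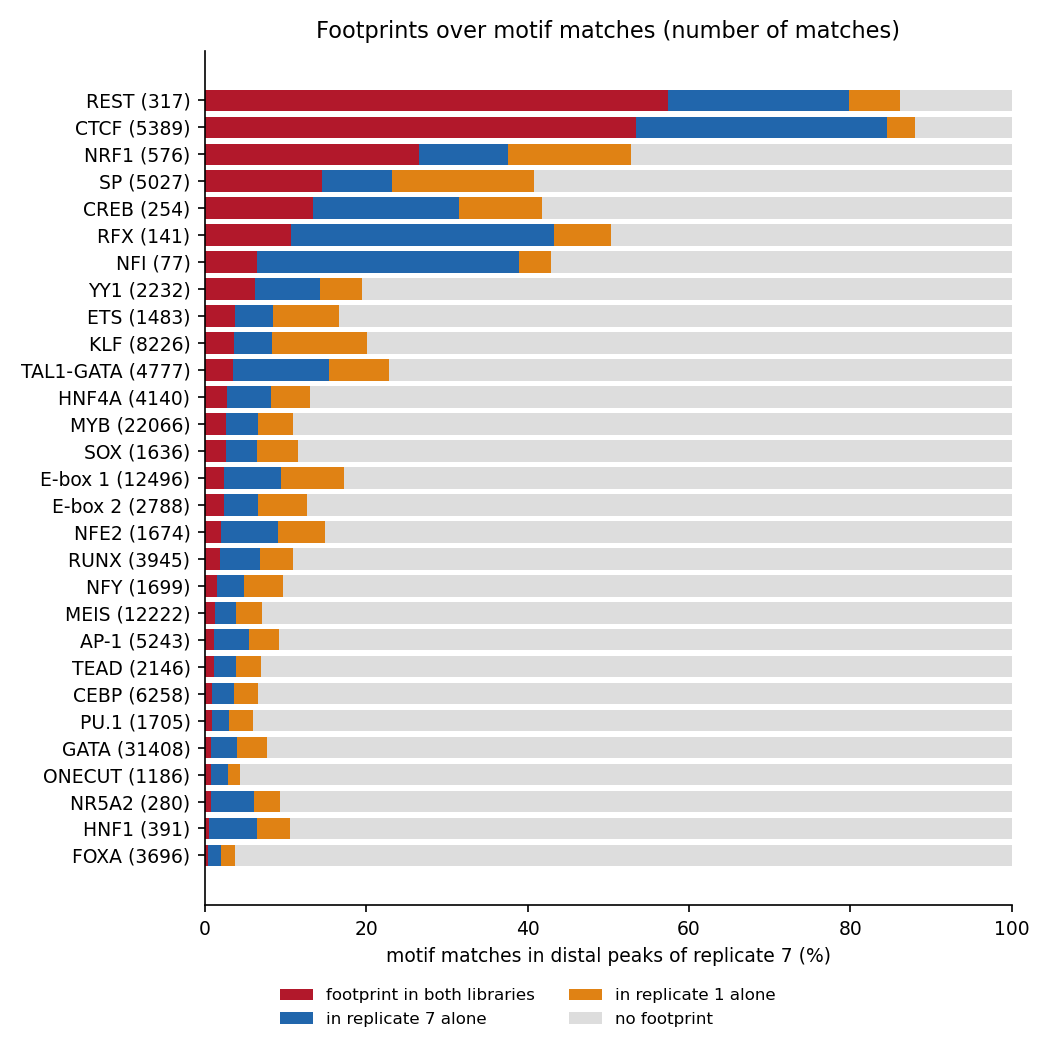
Motif matches in distal peaks of replicate 7 (horizontal axis, percent of the matches; number of matches beside each name), split by whether a footprint touches them in both libraries (red), in replicate 7 alone (blue), in replicate 1 alone (orange) or in neither (grey). REST and CTCF, at 57.4% and 53.5% in both, stand apart from GATA at 0.790% and FOXA at 0.406%.

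The share of CTCF matches with a member depended on how open the peak was, and reached nearly all matches in the densest. From the lowest to the highest density class it was 6.76%, 23.3%, 49.2%, 75.9% and 91.4%. For REST it was 9.84%, 32.9%, 80.6%, 85.5% and 86.5%, with 37 to 76 matches a class. For TAL1-GATA it was 0.174%, 0.897%, 3.55%, 9.38% and 19.9%, for HNF4A 0.162%, 1.09%, 3.54%, 8.74% and 16.8%, and for GATA 0.0902%, 0.251%, 0.765%, 2.28% and 6.10%. All 5 motifs climbed with density, and in each class CTCF and REST stood above the other 3.

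Position by position, the libraries outlined the cores of the long sites alike, but the flanks of CTCF matches differed. Over CTCF matches, coverage by members was highest 2 bp from the core's centre, at 49.4%, and at least 50% of that peak from 9 bp before to 13 bp after it, read along the core. Footprints of replicate 7 there reached 75.1%, with the same fall-off from −9 to 12 bp, and those of replicate 1 reached 52.2%, with it from −9 to 14 bp. A second, lower stretch lay 20 bp before the centre, where 5.86% of matches had a member, 12.9% a footprint of replicate 7 and 13.2% one of replicate 1, while 20 bp after the centre members covered 1.71%. Between this stretch and the core, 12 bp before the centre, replicate 7 fell to 3.56% but replicate 1 had 11.6%. The stretch thus stood clearly apart from the core in replicate 7 only. At 20 bp after the centre replicate 7 covered 2.51% and replicate 1 7.79%. Over REST matches members reached 50.5%, replicate 7 65.9% and replicate 1 59.0%. GATA matches showed the opposite form: members covered 1.05% of positions 30 bp before the centre and 0.427% at 1 bp after it, and all footprints had a low of 1.88% in replicate 7 and 2.31% in replicate 1, 4 and 5 bp after the centre, against 3.59% and 3.598% at −30 bp. Over TAL1-GATA matches members peaked at 2.39%, 7 bp before the centre and so towards the CTG, where replicate 7 reached 9.25%. Sequence preference of the nuclease can shape such profiles; no library of cut naked DNA was analysed here, and its part was not tested.

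**Figure D4:**
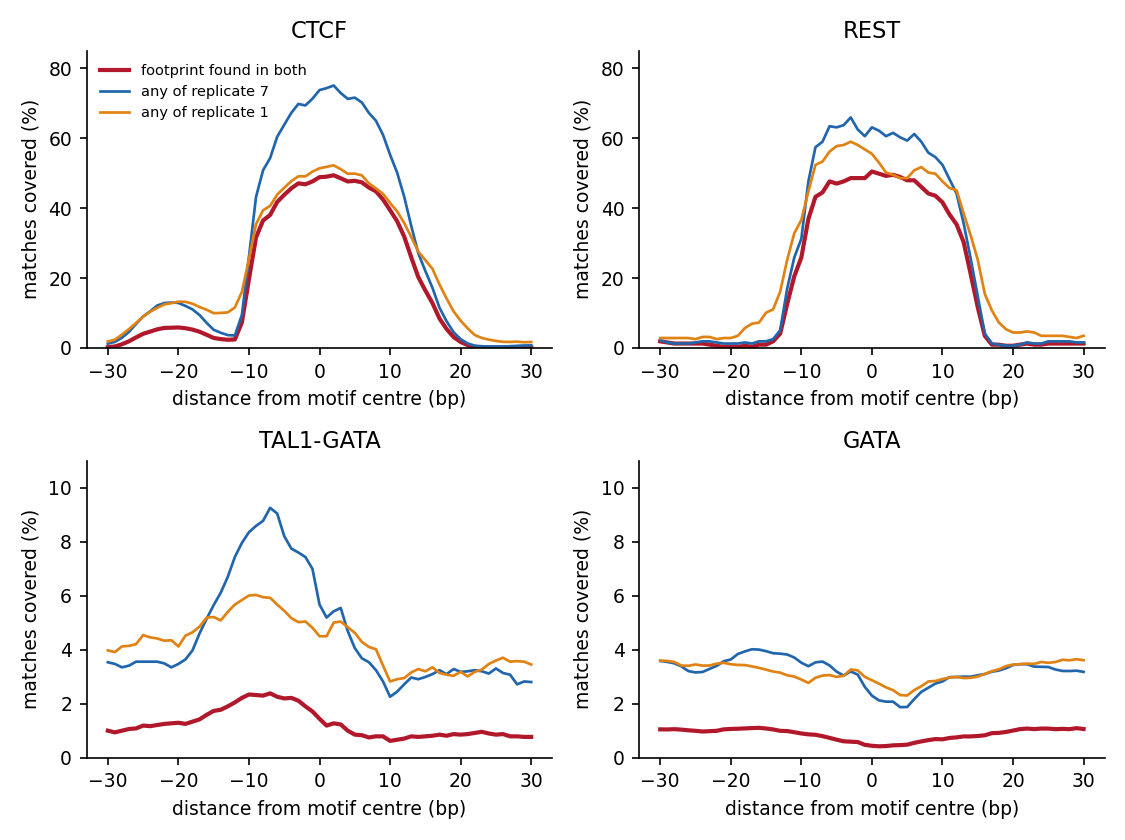
Share of motif matches in distal peaks covered by a footprint at each distance from the motif centre (horizontal axis, bp, along the motif; vertical axis, percent, to 85 for CTCF and REST and to 11 for TAL1-GATA and GATA), for members (red), all footprints of replicate 7 (blue) and all of replicate 1 (orange). Members reach 49.4% over CTCF and 50.5% over REST, and dip to 0.427% over GATA.

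A search without motifs used words of 6 letters. Of 2080 such words, joined with their reverse complements, 96 (4.62%) were at least 2 times as frequent in matched members as in their points, and 15 (0.721%) were at most 1 in 2 as frequent. GCGCCC led, at 12.1% of members against 1.64% of points, a ratio of 7.33. The next words were CACTAG with a ratio of 6.74, GCCCCC with 6.46, GGCGCC with 6.38 and AGGGGG with 6.33. After these stood CGCCAC at 5.61, CCACTA at 5.603, GCGCCA at 5.48, AGCGCC at 4.93 and AGGGCG at 4.79. The words with CTAG or CACTA, and the run of G after A, are pieces of the CTCF core. In members without a match to that core 85 words (4.09%) passed, and the leading ones were again among these 10, GCGCCC first at a ratio of 5.83. CACTAG still had a ratio of 4.53 in them, and the looser consensus matched 23.8% of all members against 18.4% with the core. Members without a match to the core may thus still hold CTCF sites. GTTCGA was among the first 10 there, at 1.17% of members against 0.277% of points, a ratio of 4.23; in footprints found once the ratio of that word was 1.32. This word is part of the B box of tRNA genes. The GATA word AGATAA had a ratio of 1.36 in members and 1.60 in footprints found once.

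Members at tRNA genes were then counted with the RefSeq annotation, after the word had been seen. GENCODE's starts do not include these genes, so their footprints can count as distal. A tRNA gene was touched by 211 members, 1.24% (1.08 to 1.42), against 52 footprints found once in replicate 7, 0.182% (0.136 to 0.239), and 100 found once in replicate 1, 0.270% (0.220 to 0.328). Including 100 bp before and 50 bp after each gene, 429 members, 2.53% (2.30 to 2.78), and 125 footprints found once, 0.437% (0.364 to 0.521), lay at a tRNA gene. Of these members 387 fell in the highest density class, where they were 6.14% of members against 3.01% of footprints found once; in class 4 the shares were 0.679% and 0.691%. Seen from the genes, 149 of 309 distal autosomal tRNA genes, 48.2% (42.5 to 53.9), had a member, 17 more a footprint of replicate 7 alone and 26 more one of replicate 1 alone.

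Over the 205 distal tRNA genes that lay in a peak, members formed 2 blocks. The first was highest 29 bp before the mature tRNA, where 52.7% of genes were covered, and the second at position 63 of the gene, at 55.6%. The B box, found in 197 of these genes by its consensus GTTC, any letter, A, any 2 letters and C, ran from position 53 to 61 in the median gene. Between the blocks no gene had a member from position 18 to position 27, 1 of the 205 genes (0.488%) had one at positions 28 to 34, and replicate 1 had a footprint in at most 5.37% of genes up to position 36. Both libraries had both blocks: replicate 7 reached 60% before the gene and 63.4% inside it, and replicate 1 63.9% and 68.3%. In the threonine gene printed above the footprint of replicate 7 ran over positions 44 to 76, past the gene's last base, and took in the B box, with 33 bp in replicate 7 and 38 bp in replicate 1. Copies of a tRNA gene resemble each other closely and the mapping of reads is not given in the sources used here, so the footprints of single copies are uncertain.

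**Figure D5:**
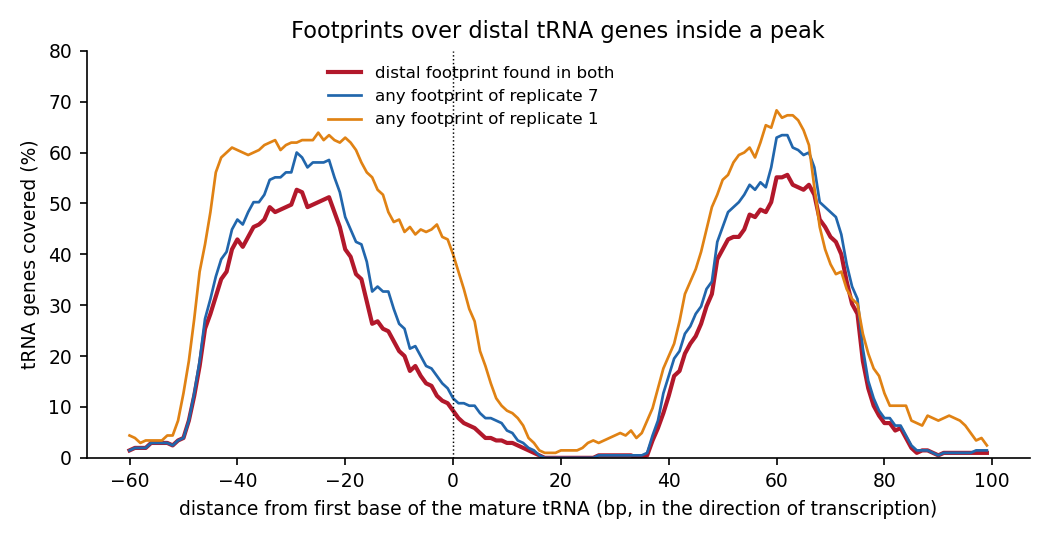
Share of 205 distal tRNA genes inside a peak that are covered by a footprint at each position (horizontal axis, bp from the first base of the mature tRNA; vertical axis, percent of genes), for members (red), all footprints of replicate 7 (blue) and all of replicate 1 (orange). Members form a block before the gene, up to 52.7%, and one at the 3′ part of the gene, up to 55.6%, with none at positions 18 to 27 and 1 gene at positions 28 to 34.

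Genes ranked by number of members beside them were led by neighbours of tRNA clusters. Members were nearest to 7109 of 20780 autosomal protein-coding genes (34.2%), with a median of 2 members a gene, and footprints found once to 9644 (46.4%). Zfp184 had 32 members, Abt1 31, Trim27 20, Olfr1423 20 and BC107364 17, and of these 28, 24, 16, 17 and 13 lay at a tRNA gene. Gse1 had 30 members in 20 peaks, Ptma, a small nuclear protein of dividing cells, 24 in 9 peaks, Klrb1c 22 in 8, Nfe2l3 18 in 10 and Arhgap23 17 in 10, none of them at a tRNA gene. Beside Ptma there were 24 members and 2 footprints found once, and beside Gse1 30 and 45. Of the peaks with a member, the densest held 4 members inside an exon of Lars2, with a density of 27.98 in replicate 7 and 24.1 in replicate 1.

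Pooled over peak density, the erythroid list did not separate members from footprints found once beyond counting error. Its genes were nearest to 62 members, 0.366% (0.281 to 0.469), and to 120 footprints found once, 0.420% (0.348 to 0.502), a difference of −0.0541 percentage points (−0.169 to 0.0695). From the lowest density class to the highest, the share was 0.311%, 0.304%, 0.238%, 0.539% and 0.318% of members. Of footprints found once it was 0.288%, 0.244%, 0.596%, 0.641% and 0.616%. It was thus lower in members in classes 3 to 5 and higher in classes 1 and 2. The intervals overlapped in every class, with 2 to 27 such members in each. By gene, 20 of 41 erythroid genes (48.8%) had a member and 27 a footprint found once, against the 34.2% and 46.4% of all genes. Of blood stem and progenitor genes, 21 of 24 had a member and 22 a footprint found once; of megakaryocyte genes 4 and 10 of 15; of hepatoblast and hepatocyte genes 21 and 34 of 41. For endothelial genes these numbers were 9 and 14 of 17, for mesenchymal genes 11 and 14 of 18, and for housekeeping genes 9 and 7 of 18. The neuronal list was nearest to 43 members, 0.254% (0.184 to 0.342), and 37 footprints found once, 0.129% (0.0912 to 0.178), and 10 and 12 of its 18 genes were reached. Rbfox3 alone held 17 of these members and 7 of those found once; without it, a choice made after its values were seen, the list was nearest to 26 members, 0.153% (0.100 to 0.225), and 30 footprints found once, 0.105% (0.0708 to 0.150), and the intervals overlapped. The macrophage list had 24 members, 0.142%, and 17 footprints found once, 0.0595%, but without footprints at tRNA genes 15 members, 0.0908%, and 14 footprints found once, 0.0492%. Its leading gene Fcgr1 had 9 members, all of them at tRNA genes. The striated muscle list had 22 members, 0.130% (0.0814 to 0.196), and 21 footprints found once, 0.0735% (0.0455 to 0.112).

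Among single blood genes, Zfpm1, whose protein is the GATA1 partner FOG1, had 11 members and 19 footprints found once. Its member in the densest peak was a CTCF site in an intron, 8797 bp from the start, at chr8:122273321-122273344 in replicate 7 and chr8:122273321-122273348 in replicate 1. Runx1, needed for blood stem cells to form, had 10 members and 16 footprints found once, and Tal1 7 and 7. Klf1, the erythroid activator of the beta-globin gene, had 5 members in 1 peak and 2 footprints found once. Its member in that peak, at chr8:84903108-84903114 in an exon, lay 1180 bp from the Klf1 start, just past the distal limit. Gata2 had 4 members, of which 2 held a blood motif, and Epb41, a red cell membrane skeleton gene, had 7, of which 4 did. Bcl11a, the repressor of fetal globin, had 3 members and 7 footprints found once, Kit 2 and 10, Lmo2 2 and 5, Lyl1 1 and 0, and Meis1 6 and 17. Nprl3, which hosts alpha-globin enhancers, and the transferrin receptor gene Tfrc had no member and 2 footprints found once each, and Epor had neither.

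Among liver genes, Hnf4a had 3 members and 6 footprints found once; 2 of the 3 were CTCF sites, and its densest member, 11712 bp from the start in an intron at chr2:163535083-163535105, held none of the motifs. Foxa2 had 7 members, Cebpb 6, Dlk1 6, Prox1, a regulator of hepatoblast migration, 4, and Hhex 1, a CTCF site. Cebpa, Afp, Alb and Onecut2 had no member and 1, 2, 1 and 1 footprints found once, and Foxa3 had neither. Outside these lineages, Rbfox3 had 17 members in 11 peaks, of which 4 were CTCF and 2 REST sites, against 7 footprints found once. Lhx2 had 7 members and Neurog2 5, with no footprint found once, Ryr1 8, Cdh5 5, Col1a1 6 and Vwf 5.

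Members lay in introns less often and between genes more often than footprints found once. Of members 50.3% (49.6 to 51.1) were intergenic, 41.7% (40.9 to 42.4) intronic and 7.97% (7.57 to 8.39) exonic, against 44.7% (44.1 to 45.2), 49.4% (48.8 to 49.98) and 5.94% (5.67 to 6.22) of footprints found once. Windows made mostly of repeat sequence, as soft-masked in the genome, were 9.36% of members, 13.5% of footprints found once and 7.58% of the points matched to members. In footprints found once in replicate 1, 45.2% were intergenic, 45.3% intronic and 9.49% exonic, and 9.75% of windows were mostly repeat.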

How the data were processed

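The peak and footprint lists were deposited by the authors for each library separately on mm10, per the accompanying notes; the sources used here name no aligner, caller or threshold. The deposited peaks carry a signal, the highest cut density, per the file headers; the deposited footprints of replicate 1 carry 0.01 in every line, taken as the p-value or FDR limit, and a further deposited list gives positions with an FDR below 0.05. The lists hold no read counts, so depth is unknown here; replicate 7 had 86036 and replicate 1 had 42422 peaks in the shorter of 2 lists each, which were used. Labels name 2 instruments for replicate 7 and none for replicate 1, so sequencing batch and library cannot be told apart.

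Distances used all transcripts of GENCODE vM21, tRNA genes RefSeq's GRCm38.p6 annotation. Motifs (29 consensus forms, both strands) were searched in 41 bp windows. A point was drawn once per footprint (seed 1) in the same peak, with a GC count within 2 letters and 21 central bases free of any footprint; 1501 members without one were left out of both sides. Ratio intervals are on the log scale, those of differences Newcombe's. Nearest genes are by protein-coding start. Alternatives changed the lists, distal limit, overlap, window, matching and left out each replicate; those with basic transcripts, 1 footprint a peak or no tRNA genes were chosen after seeing the data. Members, motifs, gene lists and tests were chosen with earlier results of these data known. Genes named are the 10 with most members (1 per 100 kb), 20 chosen by name and 3 per list; footprints printed are 2 per motif in the densest peaks, of which a part is shown, none from chromosome 18. Code was tested on simulated data with planted motifs. Python 3.11.15, pandas 2.3.3, SciPy 1.17.1, statsmodels 0.14.6 and pysam 0.24.0 were used.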

Additional observations from a re-analysis of the deposited data

How the results depend on the processing

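The directions of the CTCF, blood and liver differences held under all 12 alternatives tried for each, and the erythroid difference ran over −0.0795 to 0.00845 percentage points under its 10, above 0 with only starts within 50 kb. The number of members was 26731 with the longer footprint list of replicate 7 and 10847 with a distal limit of 5000 bp, and ran over 39084 to 45527 where 1 replicate was left out and no overlap could be asked for. The CTCF share of members minus that of footprints found once, 11.5 percentage points, was 9.40 with the longer footprint list, 12.4 with an overlap of 0.5 of the shorter footprint, 12.1 with the longer peak list, 12.1 and 12.4 with distal limits of 2500 and 5000 bp, 9.54 with a motif window of 10 bp a side, 16.0 in peaks shared with replicate 1 and, chosen after seeing the data, 15.2 with 1 footprint a peak. The blood difference, −6.73, was −5.37 with the longer footprint list, −3.61 and −8.85 with windows of 10 and 30 bp a side, and −6.02 in shared peaks. The liver difference, −1.57, was −0.921 with 10 bp a side and −1.10 in shared peaks. The CTCF ratio to points, 560, rests on 5 points and moved most: 222 with the longer footprint list, 192.5 with a limit of 5000 bp, 217 without mostly soft-masked windows, 9.10 with 30 bp a side, where windows of points reach into neighbouring footprints by construction, 190 with CpG matched, 99.25 with distance from the peak centre matched, 119 with the looser consensus, and 103.6 to 200.3 without 1 replicate. The ratios of REST, SP, TAL1-GATA, GATA, HNF4A and FOXA ran over 12 to 186, 1.48 to 7.05, 1.68 to 3.29, 0.764 to 1.15, 0.986 to 1.398 and 0.227 to 0.764 over 16 settings each that kept both replicates. The C/EBP ratio, 0.665, ran over 0.887 to 1.01 without 1 replicate, on the other side of 1 without replicate 7. Words at least 2 times as frequent numbered 155 with points not matched on GC, against 96; elsewhere the cause of a move was not tested. Without 1 replicate no footprint is found once, so the differences had no value there. No paired analysis was possible because both libraries come from 1 biological sample and no groups of samples were compared. Depth is unknown here, and footprints of thinly cut peaks may be missed in either library.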
